A study of Mus musculus with 12 samples.

Results

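Irf7, Irf9, Stat2, Ifit1, Ifit2, Ifit3, Isg15, Oasl1 and Rsad2 are a core set of interferon-stimulated genes, and their levels were followed in the livers of Lmna knock-in and wild-type mice on a methionine-restricted or a control diet. The genes were taken by name, and each was read from the probe set that carried its symbol and no other. This gave 8 of the 9 genes, each with 1 probe set, among 19938 genes measured in all. The probe set of Isg15 carried 2 symbols, so that Isg15 was not analysed here.

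When type I interferon binds its receptor, the kinases Jak1 and Tyk2 activate STAT2, which enters the nucleus in a complex with IRF9. The complex binds the interferon-stimulated response element, a short DNA motif in the promoters of many antiviral genes, and switches these genes on. Irf7, itself a target of the complex, drives the interferon genes in turn. Hepatocytes and the resident macrophages of the liver, the Kupffer cells, both carry this pathway and keep it at a low level in the absence of infection.

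The livers came from male C57BL/6N mice of 110 days in 4 groups of 3 arrays. KI_MR and KI_CD are homozygous LmnaG609G/G609G knock-in mice, a model of Hutchinson-Gilford progeria in which every cell carries the allele, on methionine restriction (MR) or the control diet (CD). WT_MR and WT_CD are wild-type mice on the same diets. Both genotypes came from crosses of heterozygotes, diets began at 7 weeks, pellets were given solid and crushed in every group, and all mice were fasted for 6 hours. Whether each array stands for a separate animal is not stated, so the p-values measure the spread between these samples.

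Levels are given in intensity units, the deposited linear brightness of a probe set, and changes as log2 differences of group means in limma, where 1 is a doubling. Array medians lay between 82 and 90 units. The 4 measured hepatocyte markers Alb, Apoa1, Ttr and Tat summed to 46011 to 54534 units per array. Lmna itself averaged 0.47 ± 0.10 higher (log2, SE) in KI than in WT livers (adjusted p = 0.0319 in limma). The positions of its probes were not available, and its level is no check on the point mutation. KI_CD replicate 1 stood apart, with a mean correlation across genes of 0.9855 with its group, against 0.9887 to 0.9942 for the other 11 arrays. In whole liver, fewer cells of a type and less RNA per cell cannot be told apart.

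The promoters of 5 of the genes are shown because they hold the response element or, for Oasl1, carry the clearest diet change without it. They are RefSeq sequences of GRCm38.p6, each from 250 bases before to 50 after the annotated start, 5′ to 3′ in the direction of the gene, with matches to the element in capitals. The element was searched as GAAA, 2 bases of any kind and GAAA again, on either strand, so that a match on the other strand reads TTTC, 2 bases and TTTC. They lie at chr10:128270248-128270547 on the plus strand for Stat2, chr19:34640639-34640938 on the plus strand for Ifit1, chr19:34583279-34583578 on the plus strand for Ifit3, chr12:26456403-26456702 on the minus strand for Rsad2 and chr5:114922990-114923289 on the plus strand for Oasl1.
Stat2: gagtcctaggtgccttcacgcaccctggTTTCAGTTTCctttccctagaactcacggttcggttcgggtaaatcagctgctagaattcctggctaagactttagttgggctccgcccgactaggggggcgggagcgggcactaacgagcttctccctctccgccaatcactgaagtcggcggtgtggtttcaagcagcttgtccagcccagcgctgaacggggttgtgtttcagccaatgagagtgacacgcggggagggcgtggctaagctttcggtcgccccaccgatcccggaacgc
Ifit1: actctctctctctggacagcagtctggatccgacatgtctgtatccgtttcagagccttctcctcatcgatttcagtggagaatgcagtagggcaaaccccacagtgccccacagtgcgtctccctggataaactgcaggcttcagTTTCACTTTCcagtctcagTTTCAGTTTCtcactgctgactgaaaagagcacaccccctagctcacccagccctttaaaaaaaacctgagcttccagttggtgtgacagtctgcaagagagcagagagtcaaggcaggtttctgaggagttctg
Ifit3: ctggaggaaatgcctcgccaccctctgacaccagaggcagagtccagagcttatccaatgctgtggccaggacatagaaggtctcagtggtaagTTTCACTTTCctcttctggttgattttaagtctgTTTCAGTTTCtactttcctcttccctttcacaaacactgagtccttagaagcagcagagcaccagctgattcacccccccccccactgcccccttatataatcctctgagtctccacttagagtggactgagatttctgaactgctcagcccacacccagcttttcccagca
Rsad2: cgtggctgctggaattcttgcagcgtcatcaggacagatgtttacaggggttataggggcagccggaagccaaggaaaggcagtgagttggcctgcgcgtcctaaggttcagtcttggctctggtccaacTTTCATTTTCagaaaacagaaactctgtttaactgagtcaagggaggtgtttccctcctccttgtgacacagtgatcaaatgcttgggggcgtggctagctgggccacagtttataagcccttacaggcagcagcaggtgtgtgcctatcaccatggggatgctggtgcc
Oasl1: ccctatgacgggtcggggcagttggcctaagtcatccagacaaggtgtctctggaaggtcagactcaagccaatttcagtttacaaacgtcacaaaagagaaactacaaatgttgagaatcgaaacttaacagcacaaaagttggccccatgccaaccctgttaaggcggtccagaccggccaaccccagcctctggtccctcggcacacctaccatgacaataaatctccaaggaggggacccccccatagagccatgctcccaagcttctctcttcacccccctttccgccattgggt
All 9 genes matched the promoter table, with 11 promoters between them, and 5 of the genes (Stat2, Ifit1, Ifit3, Isg15 and Rsad2) had at least 1 match in the window. By promoter this was 5 of 11, against 3.44% of all 32851 promoters of that length. Ifit1 and Ifit3 held 2 matches each, and Stat2 and Rsad2 held 1. Isg15 held 3, beginning at positions -78, -72 and -66 from the start, each of which overlaps the next. In Ifit1 the matches began at positions -104 and -85 from the start, in Ifit3 at -156 and -122, in Rsad2 at -120 and in Stat2 at -222. The letters were not in these windows of Irf7, Irf9, Ifit2 and Oasl1. A match is a description of the sequence.

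Of the 8 genes, 1 (Oasl1) passed the threshold for diet, against 1.21% of all genes. It was lower under methionine restriction, by 0.50 ± 0.10 on the log2 scale (SE) over both genotypes. The call was kept in only 4 of the 12 fits that left out 1 array, and was lost after median centring. The 8 genes all had estimates below 0 for MR against CD, as had 55.6% of all genes. For KI against WT 7 of 8 had estimates below 0, against 61.2% of all genes, and none passed the threshold, against 2.81%. By mean log2 level, KI_MR livers were the lowest of the 4 groups for 7 of the 8 genes and WT_CD livers the highest for 6. For none of the 8 genes did neighbours in the order of the 4 group means, 24 pairs in all, have ranges without overlap, so the order of the groups is not resolved by these arrays.

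**Figure D1:**
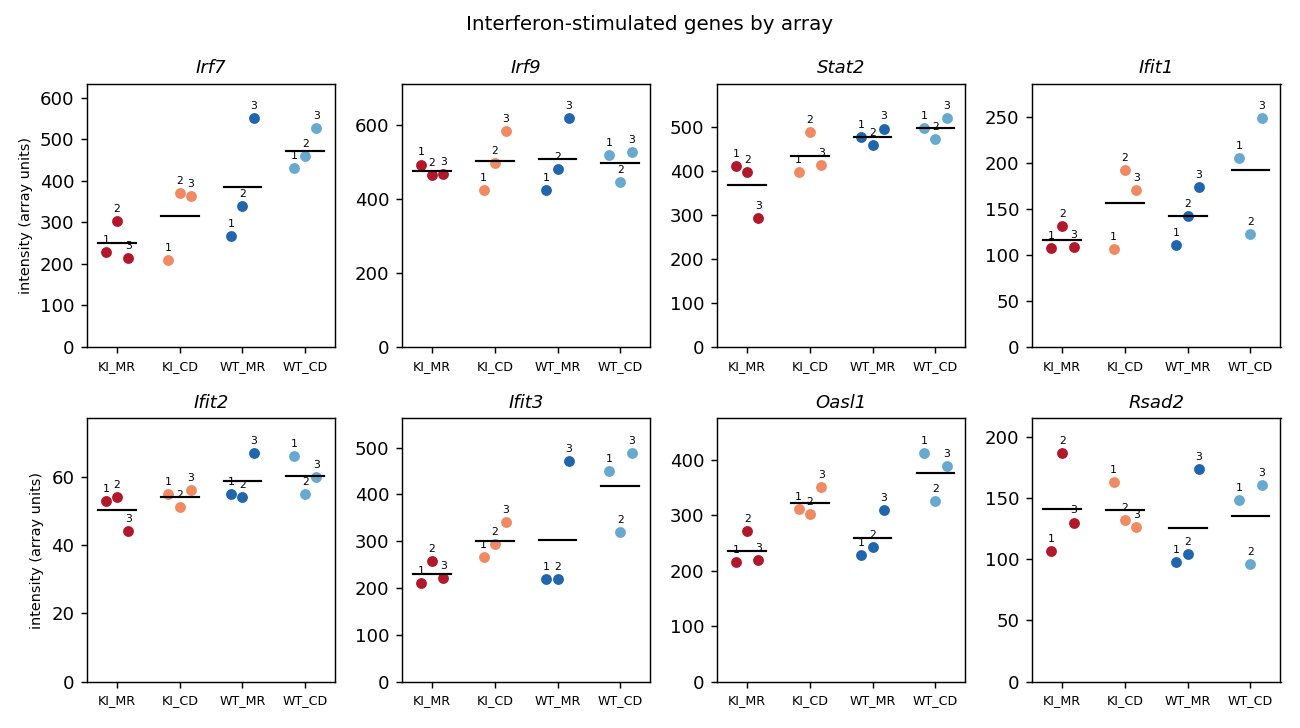
Intensity of each interferon-stimulated gene (linear axis from 0, in intensity units) in KI_MR, KI_CD, WT_MR and WT_CD livers, 3 arrays each; points are arrays, numbered by replicate, and bars are group means. Oasl1 reads 215 to 271 units in KI_MR and 302 to 352 units in KI_CD livers, and 228 to 309 units in WT_MR and 326 to 413 units in WT_CD livers, with no overlap between diets in either genotype.

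The transcription factors came first in the pathway. Irf7, the factor that amplifies interferon production, read 228, 304 and 215 units in KI_MR livers, 210, 370 and 364 units in KI_CD livers, 268, 339 and 551 units in WT_MR livers and 430, 460 and 527 units in WT_CD livers. Every WT_CD array lay above every KI array of either diet, whereas the WT_MR arrays spread over the range of both genotypes. The KI minus WT difference over both diets was -0.61 ± 0.19 (95% interval -1.03 to -0.18, adjusted p = 0.115 in limma). It was -0.58 on MR (adjusted p = 0.36) and -0.63 on CD (adjusted p = 0.422), but -0.29 on MR without WT_MR replicate 3 and -0.36 on CD without KI_CD replicate 1, the array that stood apart. With diet, Irf7 differed by -0.33 ± 0.19 over both genotypes (adjusted p = 0.634; -0.22 without WT_MR replicate 1), and MR and CD arrays overlapped in both genotypes.

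Stat2, the part of the complex that activates transcription, read 411, 398 and 294 units in KI_MR livers, 397, 490 and 414 units in KI_CD livers, 477, 460 and 497 units in WT_MR livers and 499, 474 and 521 units in WT_CD livers. Of the 6 KI arrays, 5 lay below all 6 WT arrays, and KI_CD replicate 2 overlapped them. On MR the genotypes did not overlap. The KI minus WT difference over both diets was -0.30 ± 0.09 (interval -0.49 to -0.11, adjusted p = 0.0925 in limma), and so did not pass the threshold. It was -0.39 ± 0.12 on MR (adjusted p = 0.181; -0.24 without KI_MR replicate 3) and -0.20 ± 0.12 on CD (adjusted p = 0.539). The genotype difference over both diets was called in 0 of the 12 fits that left out 1 array (adjusted p 0.0773 to 0.185 in limma). It was called in 0 of 6 other settings (adjusted p 0.0592 to 0.129). The diet difference was -0.15 ± 0.09 (adjusted p = 0.616) and -0.077 without KI_MR replicate 3.

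Irf9, the DNA-binding part of the complex, read 494, 465 and 467 units in KI_MR livers, 425, 497 and 586 units in KI_CD livers, 424, 482 and 620 units in WT_MR livers and 520, 447 and 527 units in WT_CD livers. The lowest and the highest of the 12 values were both WT_MR arrays. The differences over the other factor were -0.04 ± 0.10 for KI minus WT (interval -0.26 to 0.19) and -0.03 ± 0.10 for MR minus CD (interval -0.25 to 0.20).

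Among the effectors, the IFIT proteins bind foreign RNA and block its translation, and their genes are neighbours on mouse chromosome 19. Ifit1 read 108, 132 and 109 units in KI_MR livers, 106, 192 and 171 units in KI_CD livers, 111, 142 and 174 units in WT_MR livers and 205, 123 and 249 units in WT_CD livers. The KI_MR arrays were close together and low, but each of the other groups had an array within or near their range. MR minus CD was -0.39 ± 0.20 (interval -0.82 to 0.04, adjusted p = 0.528), and KI minus WT was -0.28 ± 0.20 (adjusted p = 0.4), which was -0.15 without KI_CD replicate 1 and -0.42 without WT_CD replicate 2.

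Ifit3 read 211, 257 and 222 units in KI_MR livers, 266, 294 and 342 units in KI_CD livers, 219, 220 and 472 units in WT_MR livers and 449, 319 and 489 units in WT_CD livers. Within KI livers the diets did not overlap; within WT livers WT_MR replicate 3 read above 2 of the 3 WT_CD arrays, while the other WT_MR arrays were below all of them. MR minus CD over both genotypes was -0.46 ± 0.19 (interval -0.88 to -0.05, adjusted p = 0.373 in limma). It was -0.38 ± 0.27 in KI livers (adjusted p = 0.863) and -0.54 ± 0.27 in WT livers (adjusted p = 0.663), where it was -0.91 without WT_MR replicate 3 and -0.36 without WT_MR replicate 1. KI minus WT was -0.38 ± 0.19 (adjusted p = 0.251) and -0.20 without WT_MR replicate 3, and the difference on MR was -0.31 with that array but 0.062 without it. Ifit3 has close paralogs beside it, and arrays can read such paralogs together.

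Ifit2 was dim, with 53, 54 and 44 units in KI_MR livers, 55, 51 and 56 units in KI_CD livers, 55, 54 and 67 units in WT_MR livers and 66, 55 and 60 units in WT_CD livers. The values span few units, and 1 unit is a log2 step of 0.026 at their mean of 55.8 units. KI_MR replicate 3 was the single value of the 8 genes below the lower quartile of all genes on the same array. KI minus WT was -0.19 ± 0.08 (interval -0.36 to -0.02, adjusted p = 0.193 in limma), and MR minus CD was -0.07 ± 0.08 (adjusted p = 0.861).

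Oasl1, a relative of the oligoadenylate synthetases that in mouse restrains the translation of Irf7, had the clearest pattern. It read 215, 271 and 220 units in KI_MR livers, 311, 302 and 352 units in KI_CD livers, 228, 243 and 309 units in WT_MR livers and 413, 326 and 389 units in WT_CD livers. Diets did not overlap in either genotype, and 5 of the 6 MR arrays lay below all 6 CD arrays. The group means were 235 ± 31.0 units in KI_MR and 322 ± 26.7 units in KI_CD livers, and 260 ± 43.1 units in WT_MR and 376 ± 44.9 units in WT_CD livers (SD, n = 3 each). Over both genotypes the level fell by 0.50 on the log2 scale, a decrease of 29.1% (interval of the log2 change -0.71 to -0.29, adjusted p = 0.0325 in limma). The changes were -0.46 ± 0.14 in KI livers (adjusted p = 0.315) and -0.54 ± 0.14 in WT livers (adjusted p = 0.172), both short of the threshold on their own. The call was lost when the arrays were centred on their medians (adjusted p = 0.0665) and in 8 of the 12 fits that left out 1 array, whose adjusted p lay between 0.0161 (without WT_MR replicate 3) and 0.0973 (without KI_MR replicate 1) with changes of -0.56 to -0.45. KI minus WT for Oasl1 was -0.18 ± 0.10 (interval -0.39 to 0.03, adjusted p = 0.282), and -0.11 without WT_MR replicate 3.

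Rsad2, which encodes viperin, an enzyme that makes a chain-terminating nucleotide against viral polymerases, differed from the others in the order of its group means. It read 107, 187 and 130 units in KI_MR livers, 163, 132 and 126 units in KI_CD livers, 98, 104 and 174 units in WT_MR livers and 148, 96 and 161 units in WT_CD livers. The highest value was a KI_MR array and the lowest a WT_CD array, whereas by mean log2 level KI_CD was highest and WT_MR lowest. After each gene was centred within its group, Rsad2 correlated (Pearson) by 0.839 with Oasl1 and 0.784 with Ifit3, but by 0.164 with Stat2. KI minus WT was 0.13 ± 0.19 (interval -0.28 to 0.55, adjusted p = 0.682) and MR minus CD was -0.07 ± 0.19 (interval -0.49 to 0.34, adjusted p = 0.963).

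**Figure D2:**
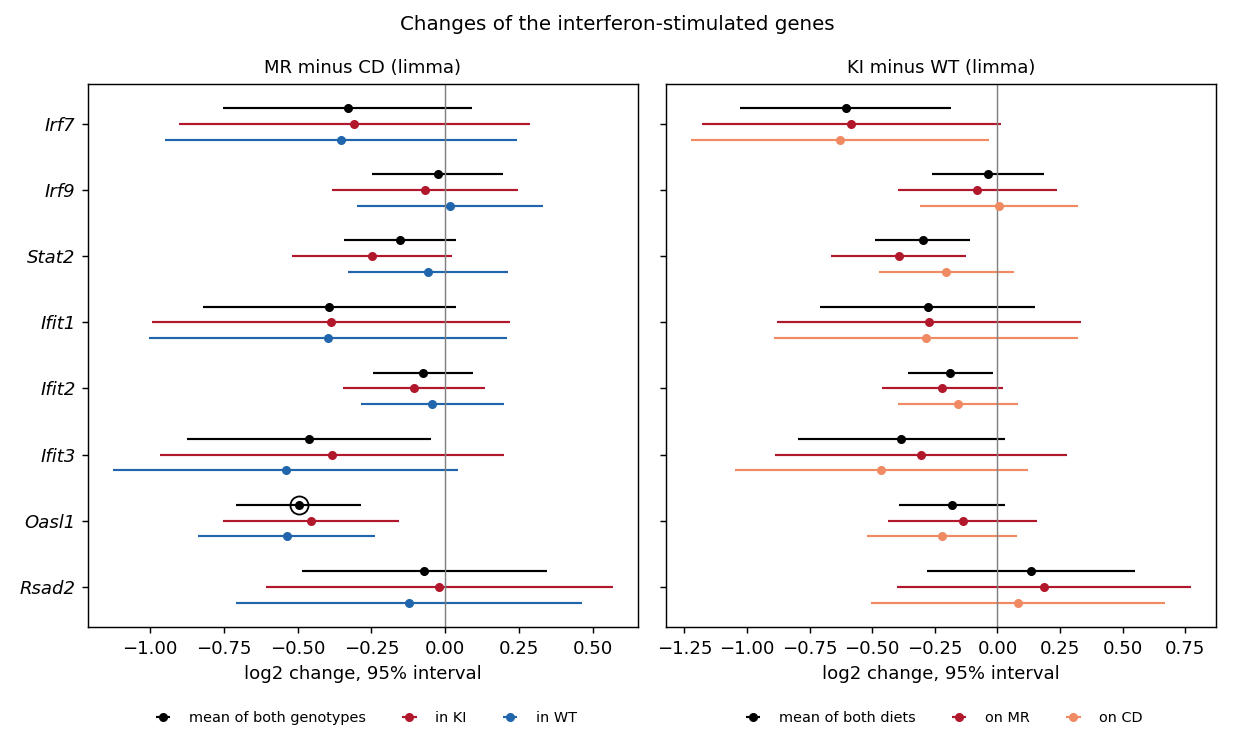
Log2 changes of the 8 genes with 95% intervals from limma, MR minus CD on the left and KI minus WT on the right; black points are the mean over the other factor, coloured points each genotype or diet, and the ring marks an adjusted p under 0.05. The ring falls on Oasl1 for MR minus CD (-0.50), and every other interval of a mean over both levels that leaves out 0 (Irf7, Stat2 and Ifit2 for genotype, Ifit3 for diet) belongs to an adjusted p above 0.05.

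The diet comparison asked whether methionine restriction alters these genes. Over both genotypes 1 of the 8 genes (Oasl1) passed an adjusted p of 0.05, against 1.21% of all genes, and 2 (Oasl1 and Ifit3) had an unadjusted p under 0.05, against 10.9%. All 8 estimates were below 0, as were 55.6% of all genes, and their median was -0.24, against -0.01 for all genes. None of the 8 was lower in every MR array than in every CD array, as 0.481% of genes were. In KI livers 0 of 8 passed in limma, against 0.176% of genes, 1 (Oasl1) had an unadjusted p under 0.05, against 7.78%, and 2 (Ifit3 and Oasl1) were lower without overlap, against 6.99%; 8 of 8 estimates were below 0, against 56.6% of genes. In WT livers 0 of 8 passed in limma, against 0.326%, 1 (Oasl1) had an unadjusted p under 0.05, against 8.19%, and 1 (Oasl1) was lower without overlap, against 5.17%; 7 of 8 were below 0, against 52.2%. The median was -0.28 in KI livers and -0.24 in WT livers. Both medians moved with single arrays. The KI median was -0.15 without KI_MR replicate 3 and -0.16 without KI_CD replicate 2. The WT median was -0.47 when WT_MR replicate 3 was left out and -0.090 when WT_MR replicate 1 was. Leaving out WT_CD replicate 2 gave -0.36, and leaving out WT_CD replicate 3 gave -0.11.

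The genotype comparison asked how the progeria allele alters them. Over both diets 0 of the 8 genes passed in limma, against 2.81% of all genes, and the lowest adjusted p was that of Stat2. At an unadjusted p under 0.05 there were 3 (Irf7, Stat2 and Ifit2), against 22% of all genes. Of the 8 estimates 7 were below 0, against 61.2% of all genes, and their median was -0.23, against -0.04 for all genes. None of the 8 was lower in every KI array than in every WT array, as 0.657% of genes were. On MR 0 of 8 passed in limma, against 0.471%, 1 (Stat2) had an unadjusted p under 0.05, against 14.1%, and 1 (Stat2) was lower without overlap, against 8.82%; 7 of 8 were below 0, against 62.3%. On CD 0 of 8 passed in limma, against 0.0802%, 1 (Irf7) had an unadjusted p under 0.05, against 11.2%, and 1 (Irf7) was lower without overlap, against 10.4%; 6 of 8 were below 0, against 56.6%. The comparisons share arrays in pairs, so their values stand side by side and are no independent repeats.

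The interaction asked whether the diet change differs between KI and WT livers. In limma 0 of the 8 genes passed, as did 0 (0%) of all genes, and 0 of the 8 had an unadjusted p under 0.05, against 4.13% of all genes. The estimate for Oasl1 was 0.08 ± 0.19 (interval -0.34 to 0.50) and that for Stat2 was -0.19 ± 0.17 (interval -0.57 to 0.19). The widest of the 8 intervals was that of Ifit1, -0.85 to 0.87, and differences inside it were not detectable with 3 arrays a group.

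**Figure D3:**
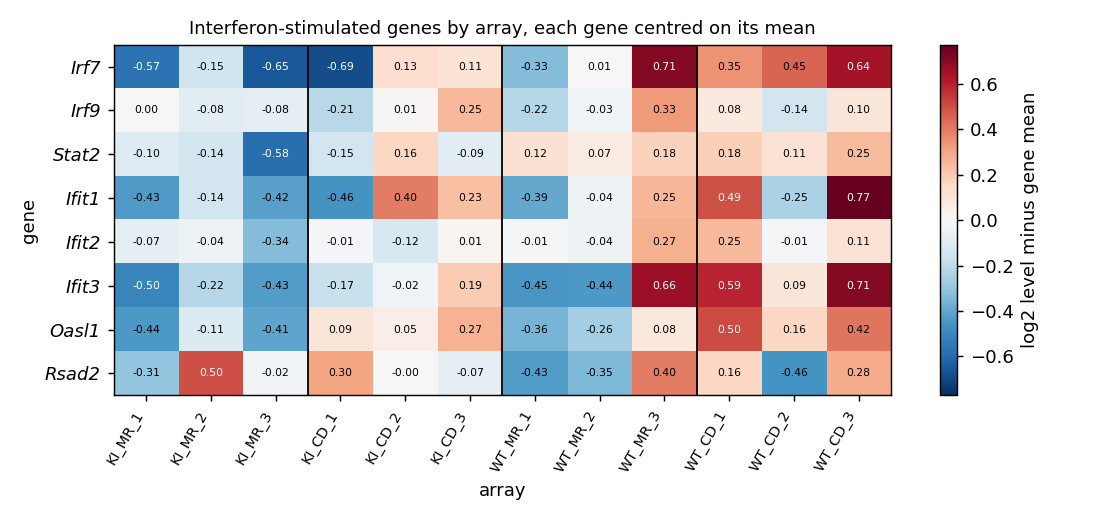
Level of each of the 8 genes (rows) in each of the 12 arrays (columns), as log2 units above (red) or below (blue) the mean of that gene over all arrays, with vertical lines between the groups. Averaged over the 8 genes, KI_MR replicates 1 and 3 are lowest (-0.30 and -0.37), and WT_MR replicate 3 and WT_CD replicates 1 and 3 are highest (0.36, 0.32 and 0.41).

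The 8 genes varied together between arrays of one group. WT_MR replicate 3 was the highest of its group for 8 of 8 genes, and its mean level, 0.36 above the gene means, stood beside -0.26 and -0.14 for the other WT_MR arrays. WT_CD replicate 2 was the lowest of its group for 7 of 8 genes, at -0.01 against 0.32 and 0.41. KI_MR replicate 2 was the highest of its group for 6 genes. After each gene was centred within its group, the Pearson correlations of the 28 pairs over 12 arrays ran between 0.164 (Stat2 with Rsad2) and 0.881 (Ifit3 with Oasl1), with a median of 0.652. These points share the array, so any difference between whole arrays enters every pair. Stat2 went least with the rest, at 0.224 with Oasl1 and 0.255 with both Irf9 and Ifit3.

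The spread within groups was unequal among the genes. The pooled SD (log2) was 0.38 to 0.39 for Irf7, Ifit1, Ifit3 and Rsad2, larger than for about 97% of genes. It was 0.14 to 0.19 for Ifit2, Stat2, Oasl1 and Irf9. Oasl1 and Ifit3 had diet estimates of nearly the same size, -0.50 and -0.46, and SEs of 0.10 and 0.19.

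The genes whose pattern over the 12 arrays was most like the mean of the 8 were Parp9 (r = 0.933), Faiml (0.923), Rtp4 (0.901), Mbl1 (0.896), Hsd17b2 (0.881), Trim26 (0.875), Ifi27 (0.873) and Tex38 (0.870). After centring within groups they were Pramel19 (0.928), Znfx1 (0.927), Pithd1 (0.908), Hhip (0.907), Mreg (0.907), Pla2g12b (0.907), Trav12-2 (0.906) and Tubg1 (0.905). They are the highest of the 19938 genes once the 8 themselves and predicted loci were left out. Predicted loci are symbols of Gm or LOC plus digits, ending in Rik or starting with a digit. Some of the genes are dim: Faiml, Tex38, Pramel19 and Trav12-2 have mean log2 levels of 4.15, 5.36, 5 and 4.14, below the lower quartile of every array.

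The rest of the pathway was described from lists of its parts, in which Usp18 and Trim25 stand in 2 lists each. Of all genes, 1.21% passed for diet, 10.9% had an unadjusted p under 0.05 and 55.6% had estimates below 0. For genotype these shares were 2.81%, 22% and 61.2%. Among the receptors and their kinases, 0 of 9 passed in limma for diet or for genotype, with 0 and 2 at an unadjusted p under 0.05 and medians of -0.01 and 0.06; Jak1 differed with diet by 0.05 ± 0.06 and Ifnar1, a chain of the type I receptor, by -0.10 ± 0.06. Of the interferon genes themselves 7 of 8 were measured, and 0 passed for either factor, with 0 for diet and 2 for genotype at an unadjusted p under 0.05. These genes were dim: 3 of the 7 (Ifnb1, Ifnk and Ifna4) lay below the lower quartile of gene levels on all 12 arrays, so that their signs and differences are not read here. Of the nucleic acid sensors and adaptors 19 of 20 were measured, and 16 had diet estimates below 0 (median -0.10), with 0 called and 5 at an unadjusted p under 0.05. Examples are the cytosolic RNA sensors Dhx58, -0.52 ± 0.14 (adjusted p = 0.127), and Ifih1, -0.31 ± 0.10 (adjusted p = 0.191).

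Of the other interferon regulatory factors and STATs 11 of 13 were measured, 6 with diet estimates below 0 and 5 above (median -0.08). For diet 1 of the 11 was called, against 1.21% of all genes. This was Irf5, the factor that acts below the Toll-like receptors and drives inflammatory cytokines in macrophages, which fell with MR. It read 142, 165 and 127 units in KI_MR livers, 229, 308 and 265 units in KI_CD livers, 166, 156 and 212 units in WT_MR livers and 258, 254 and 278 units in WT_CD livers. All 6 MR arrays lay below all 6 CD arrays, as for 0.481% of all genes. The change over both genotypes was -0.73 ± 0.10 (adjusted p = 0.0063 in limma) and was called in every one of the 12 fits that left out an array. In KI livers, where 0.176% of all genes were called, it was -0.88 ± 0.14 (adjusted p = 0.0375 in limma). That call was lost in 9 of the 12 such fits and in 4 of 7 other settings (adjusted p up to 0.287). Among these settings was the replicate number as a block (adjusted p = 0.0674).

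Of 45 other antiviral effectors 40 were measured, 34 of them with diet estimates below 0 (median -0.10), against 55.6% of all genes. The 1 called, against 1.21% of all genes, was Mov10, an RNA helicase that limits retroviruses and retrotransposons. It read 614, 661 and 502 units in KI_MR livers, 1048, 916 and 911 units in KI_CD livers, 739, 778 and 753 units in WT_MR livers and 881, 892 and 882 units in WT_CD livers. MR arrays lay below all CD arrays, as for 0.481% of all genes. The change was -0.46 ± 0.07 over both genotypes (adjusted p = 0.00926), called in all 12 fits without 1 array, and -0.70 ± 0.10 in KI livers (adjusted p = 0.0207), a call lost in 4 of the 12. The closest others were Parp12, -0.35 ± 0.09 (adjusted p = 0.0894), and Xaf1, -0.35 ± 0.10 (adjusted p = 0.164).

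Of the 28 genes of the interferon gamma response 23 were measured, 22 with diet estimates below 0 (median -0.25), against 55.6% of all genes. In limma 2 of the 23 were called, against 1.21% of all genes. Tap1, the peptide transporter of antigen presentation, fell by 0.43 on the log2 scale (SE 0.08, adjusted p = 0.0326). It read 171 to 232 units in the 6 MR arrays and 243 to 311 units in the 6 CD arrays. Gbp3, a guanylate-binding protein of cell-autonomous defence, fell by 0.36 (SE 0.07, adjusted p = 0.0417), with 111 to 159 units in MR and 139 to 193 units in CD arrays, which overlap. The calls of Tap1 and Gbp3 were lost in 10 and 11 of the 12 fits without 1 array. Psmb9, an immunoproteasome subunit, differed by -0.41 ± 0.10 (adjusted p = 0.0994).

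For genotype, 3 genes of these lists passed. They were 1 of 40 other antiviral effectors, 1 of 19 sensors and adaptors and 1 of 10 negative regulators. In the other lists these counts were 0 of 9 receptors and kinases, 0 of 7 interferon genes and 0 of 11 regulatory factors and STATs. They were 0 of 5 for ISG15 conjugation and 0 of 23 for the interferon gamma response. The number called is not read as a result about the pathway. Over all genes 2.81% passed for genotype, and 61.2% had estimates below 0. Oas2, an oligoadenylate synthetase, fell by 0.34 on the log2 scale (SE 0.07, adjusted p = 0.0318), with 105 to 134 units in the 6 KI arrays and 135 to 183 units in the 6 WT arrays. Tlr9, the endosomal DNA sensor, fell by 0.29 (SE 0.06, adjusted p = 0.0305), with 86 to 106 units in KI and 107 to 123 units in WT arrays. Pias1, an inhibitor of STAT signalling, rose by 0.42 (SE 0.09, adjusted p = 0.0324), with 614 to 755 units in KI and 414 to 620 units in WT arrays. Each call was lost in 8 or 9 of the 12 fits without 1 array. Genotype estimates were below 0 for 10 of 19 sensors and adaptors (median -0.006), 7 of 11 regulatory factors and STATs (median -0.004), 28 of 40 other antiviral effectors (median -0.10) and 21 of 23 genes of the interferon gamma response (median -0.19). Of the 5 genes of ISG15 conjugation 5 had genotype estimates below 0 (median -0.13) and 0 were called, and of the 10 negative regulators 7 were above 0 (median 0.14). Diet estimates were below 0 for 3 of the 5 genes of ISG15 conjugation (median -0.05) and 6 of the 10 negative regulators (median -0.04), with 0 called and 0 and 1 at an unadjusted p under 0.05.

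**Figure D4:**
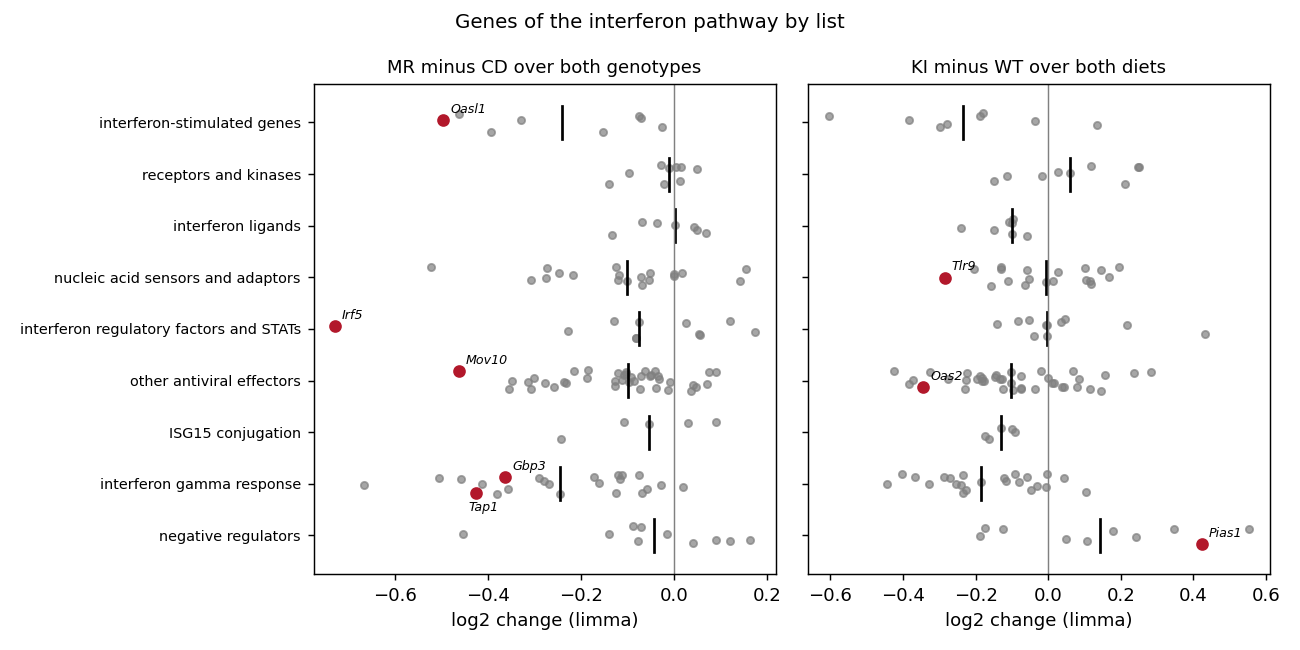
Log2 change of every measured gene of the 8 interferon-stimulated genes and of each pathway list, MR minus CD over both genotypes on the left and KI minus WT over both diets on the right; points are genes, bars are list medians, and the named red points pass an adjusted p of 0.05 in limma. The medians for diet lie at -0.24 for the interferon-stimulated genes and -0.25 for the interferon gamma response, beside -0.01 for receptors and kinases.

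Kupffer cell and macrophage markers had genotype estimates in the same direction as those of the interferon-stimulated genes. Of 10 markers 10 were measured and none was at 0. All 10 had KI minus WT estimates below 0 (median -0.28), against 61.2% of all genes. In limma 0 were called, against 2.81%, and 3 had an unadjusted p under 0.05, against 22%. Clec4f, a Kupffer cell lectin, differed by -0.28 ± 0.07 (adjusted p = 0.0678) and Adgre1 by -0.53 ± 0.23 (adjusted p = 0.205). Their summed level was 7041 to 8194 units in KI_MR livers, 6471 to 8113 units in KI_CD livers, 6614 to 11901 units in WT_MR livers and 8549 to 10499 units in WT_CD livers. The part of these cells in the genotype differences of Irf7, Stat2 and Ifit2 was not tested. For MR minus CD 8 of 10 markers were below 0, against 55.6% of all genes, with a smaller median of -0.08. Of these markers 0 were called for diet and 0 had an unadjusted p under 0.05.

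The highest macrophage sum, 11901 units, was that of WT_MR replicate 3, the array in which all 8 interferon-stimulated genes were highest in their group. The second highest, 10499 units, was that of WT_CD replicate 2, in which 7 of the 8 were lowest. Without WT_MR replicate 3 the diet change of Oasl1 was -0.56 (adjusted p = 0.0161 in limma), and Ifit3 passed as well.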

How the data were processed

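Liver RNA of 12 mouse samples was read on Affymetrix Mouse Gene ST arrays. The values deposited by the authors are linear intensities, whole numbers from 10 to 20042; the background correction and scaling behind them are not given in the sources used here. Log2 was taken with no further scaling. Of 35512 probe sets, 21789 carried 1 gene symbol in the platform annotation, 1621 several and 12102 none; for a gene with several probe sets the one with the highest mean was used, which gave 19938 genes.

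One model of 4 group means was fitted in limma 3.58.1 (R 4.3.3), with 8 residual and 3.14 prior degrees of freedom, two-sided tests, p-values adjusted by Benjamini-Hochberg over all genes of a comparison and a threshold of 0.05. With 3 arrays a group, their number limits the precision. The fit was tested on simulated data. Promoters came from RefSeq (GRCm38.p6) and were matched by symbol; coordinates are of that table only. The genes and lists, and the lists' tests, were chosen with earlier results of these data known. Named genes are the 8 measured ones and, of each list, up to 4 with the smallest p for each factor plus every gene past the threshold. To these come the 8 other genes most like the mean of the measured ones in each of 2 ways, with predicted loci left out. Alternatives tried were median centring, quantile normalization, a filter on the dimmest 25% of genes, the mean of probe sets, an intensity trend with a robust prior, the replicate number as a block, fits of the compared arrays alone, and leaving out each array.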

Additional observations from a re-analysis of the deposited data

How the results depend on the processing

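Of the 8 interferon-stimulated genes the 1 called for MR minus CD over both genotypes, Oasl1, was called in 5 of 6 other settings (adjusted p 0.0246 to 0.0665 in limma) and not after median centring, where 0 genes were called; the cause was not tested. Without 1 array the count was 0 to 2: Oasl1 stayed past the threshold in 4 of 12 such fits and Ifit3 joined it without WT_MR replicate 3. The median of the 8 genes for WT_MR minus WT_CD was -0.47 to -0.090 without 1 array, the lowest without WT_MR replicate 3 and the highest without WT_MR replicate 1. Irf9 for KI_CD minus WT_CD was -0.064 under quantile normalization, and Rsad2 for KI_MR minus KI_CD was 0.016 under it and 0.006 under median centring. With 1 array left out at a time, these log2 estimates changed sign, and none of them was called at any point; most were near 0, but Ifit3 and Rsad2 for KI_MR minus WT_MR were -0.31 and 0.18 with all arrays. The ranges were, for KI_CD minus WT_CD, Irf9 -0.11 to 0.12 and Rsad2 -0.15 to 0.23. For KI_MR minus WT_MR, Irf9 -0.20 to 0.072, Ifit3 -0.49 to 0.062 and Rsad2 -0.037 to 0.45. For KI_MR minus KI_CD, Irf9 -0.18 to 0.048 and Rsad2 -0.24 to 0.16. For WT_MR minus WT_CD, Irf9 -0.14 to 0.14, Ifit2 -0.14 to 0.023 and Rsad2 -0.38 to 0.030. For KI minus WT over both diets, Irf9 -0.099 to 0.038. For MR minus CD over both genotypes, Irf9 -0.10 to 0.035 and Rsad2 -0.20 to 0.019. For the interaction, Irf7 -0.22 to 0.34, Irf9 -0.21 to 0.067, Ifit1 -0.25 to 0.30, Ifit2 -0.13 to 0.036, Ifit3 -0.029 to 0.53, Oasl1 -0.024 to 0.21 and Rsad2 -0.12 to 0.36. Same-numbered arrays of different groups had deviations that correlated by -0.0588 to 0.244 (median 0.0992). Arrays of other numbers correlated by -0.247 to 0.197 (median -0.0426). The ranges overlap, but 11 of 12 arrays were on average closest to their own number. The labels do not say what same-numbered arrays share, and the main fit holds no term for the number. With the replicate number as a block Oasl1 kept its diet call (adjusted p = 0.0457), and the calls over all genes were 960 in place of 561 for KI minus WT over both diets and 177 in place of 94 for KI_MR minus WT_MR. Over all genes and settings, the calls were 0 to 31 for KI_CD minus WT_CD (16 in the fit reported), 15 to 177 for KI_MR minus WT_MR, 0 to 42 for KI_MR minus KI_CD (35), 65 to 131 for WT_MR minus WT_CD (65) and 193 to 287 for MR minus CD (241); without 1 array they were 2 to 32, 3 to 226, 7 to 94, 17 to 199 and 112 to 470, and 138 to 1945 for KI minus WT. The lower share of calls was 55.2% after median centring against 44.7% for KI_MR minus WT_MR, and 55.6% against 65.7% for KI_MR minus KI_CD. Of the other pathway genes, Tap1 lost its diet call after median centring and with the block, Gbp3 in these and after quantile normalization, Oas2 and Pias1 their genotype calls after median centring. For KI_MR minus KI_CD, Irf5 lost its call in 4 of 7 other settings (quantile normalization, median centring, the block and the compared arrays alone, adjusted p up to 0.287) and Mov10 in 1 of 7 (the compared arrays alone, adjusted p = 0.309).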

Other observations

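Markers of the other cell types that whole liver can hold were summarised the same way. With genotype, Retnlg, a neutrophil gene, was 0.31 ± 0.06 higher (log2, SE) in KI than in WT livers (adjusted p = 0.0215 in limma), and Dcn, a stellate cell gene, was 0.32 ± 0.07 higher (adjusted p = 0.0324), while the 6 stellate cell genes were split, 3 above and 3 below 0 (median -0.05). The summed neutrophil markers were 332 to 369 units in KI arrays and 290 to 320 units in WT arrays. These markers were dim, with mean log2 levels from 5.38 (Ly6g) to 6.80 (Csf3r), beside array lower quartiles of 5.49 to 5.67. The marker genes and sums were not refitted without single arrays. Of the 5 neutrophil genes 4 were higher in KI livers (median 0.21). In limma 0 genes of the hepatocyte, endothelial, dendritic, plasmacytoid dendritic, T and NK, B cell and cholangiocyte lists passed for genotype, against 2.81% of all genes. Their medians were 0.04, -0.05, 0.02, -0.01, -0.07, -0.08 and 0.15. At an unadjusted p under 0.05 were 1 of 4, 0 of 6, 0 of 5, 2 of 4, 2 of 7, 1 of 4 and 0 of 4 of their genes, against 22% of all genes. Bst2 of the plasmacytoid dendritic list also stands among the other antiviral effectors. With diet 0 genes of any of the 10 cell type lists passed in limma, against 1.21% of all genes. At an unadjusted p under 0.05 were 1 of 5 neutrophil genes and 1 of 4 genes of the plasmacytoid dendritic list, against 10.9% of all genes. All 6 stellate cell genes had diet estimates below 0 (median -0.17).

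The response element was also counted in the other lists. It was in the promoter window of 12 of the 30 other antiviral effectors with a promoter in the table, and 6 of 14 genes of the interferon gamma response. It was in 3 of 15 sensors and adaptors, 2 of 7 interferon genes and 2 of 11 other regulatory factors and STATs. The negative regulators had 1 of 8, ISG15 conjugation 0 of 4 and receptors and kinases 0 of 8. Some genes have several promoters, and by promoter the effectors had 13 of 35, against 3.27% of the promoters of measured genes. The gamma-activated motif TTCNNNGAA was in 7.66% of the promoters of measured genes.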
